A study of Mus musculus with 4 samples.

Results

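The Notch pathway and its Hes and Hey target genes were examined in NSCL61-sox11 and NSCL61 cells as 41 genes chosen by their known role: 4 receptors, 7 ligands, 6 proteases of receptor cleavage, 12 modifiers and trafficking regulators, 4 genes of the nuclear complex, and 8 target genes or relatives of them. Of these, 40 had a probe set annotated to that gene alone, and Maml3 had none. A gene was read from its brightest such probe set, by the mean of the 4 arrays. In 35 of them that probe set was bright enough to be tested, among 13084 genes tested in all. Notch4, Dll3, Dner, Maml2 and Hey2 were below the level filter.

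Both lines derive from neural stem cells of the telencephalon of C57BL/6 mouse embryos at embryonic day 14.5, carry the genotype p53-/-, and are labelled as resembling glioma-initiating cells. NSCL61-sox11 additionally expresses Sox11, a transcription factor of the SoxC group, and the submitters state that it had lost the ability to form tumours in mice, whereas NSCL61 is the line without it. Per the labels, neural cells of this origin were grown as floating spheres without serum, in medium with 10 ng/ml PDGF, 5 µM forskolin and bFGF. Each line was measured on 2 Affymetrix arrays, 4 in all. There is 1 line of each kind, and the labels do not give how Sox11 was introduced. No label ties an array to a culture of its own, so p-values rest on array-to-array spread that may be technical.

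Notch receptors are membrane proteins that are cut after a Delta or Jagged ligand on a neighbouring cell binds them. ADAM proteases and then gamma-secretase release the intracellular domain, which enters the nucleus and joins the DNA-binding protein Rbpj and a Mastermind coactivator to switch on Hes and Hey repressor genes. In the developing telencephalon this signal is known for keeping neural progenitors undifferentiated, because Hes proteins repress proneural genes.

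The labels and arrays were checked first. Sox11 stood at 7.74 and 7.97 in NSCL61-sox11, against 5.09 and 4.82 in NSCL61 (log2 values). Over the 27022 tested probe sets Pearson's r was 0.994 within NSCL61-sox11 and 0.995 within NSCL61, and 0.968 to 0.972 between the lines. Of the markers of neural stem and progenitor cells, Nes, Sox2, Vim and Slc1a3 were above the level filter, and Fabp7, Olig2 and Prom1 were below it. Slc1a3 rose by 1.19, Sox2 fell by 1.70 and Vim by 0.21, and Nes was not called. These markers summed to 14.24 and 14.32 in NSCL61-sox11, against 14.50 and 14.56 in NSCL61 (7 genes). Most of that sum was Vim, at 14.14 and 14.21 in NSCL61-sox11, against 14.36 and 14.40 in NSCL61, so it says little about the other markers. The markers of fibroblasts and meninges summed to 11.61 and 12.68 in NSCL61-sox11, against 10.04 and 10.83 in NSCL61 (log2 of the summed level of 7 genes), and 4 of 6 tested rose. Those of endothelial and mural cells summed to 9.53 and 9.77 in NSCL61-sox11, against 8.57 and 8.63 in NSCL61, and 2 of 5 tested rose, the mural genes Rgs5 (1.94) and Acta2 (1.73). Of the endothelial genes, Cdh5 differed by -0.59 (adjusted p = 0.053), Kdr by 0.10 and Cldn5 by 0.09, and Pecam1 and Tek were below the level filter. Neuron markers summed to 8.98 and 8.92 in NSCL61-sox11, against 8.46 and 8.44 in NSCL61 (6 genes), and 2 of 4 tested rose, Tubb3 by 1.496 and Syt1 by 0.62 (limma adjusted p = 0.0029 and 0.011), while Rbfox3 and Stmn2 were not called and Dcx and Map2 were below the filter. Markers of microglia and blood summed to 7.55 and 7.40 in NSCL61-sox11, against 7.50 and 7.58 in NSCL61, and the 1 tested was not called. Of all tested genes, 10.0% rose and 9.19% fell. Several fibroblast, mural and progenitor markers and 2 neuron markers thus differed between the lines. Their part in the results below was not tested. In bulk RNA, a change in the number of cells of a type and a change in RNA per cell cannot be told apart.

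Promoter sequence is shown for members that carry the letters of the Rbpj binding site, because their levels bear on the pathway's output. RefSeq promoters (GRCm38.p6, 250 bases before to 50 after a start) were held for 33 of the members, with 42 starts in all. The letters GTGGGAA, read on both strands, were found in 6 of those 33 genes (Aph1a, Hes5, Hes7, Hey2, Lfng and Psen2), that is in 14.3% of 42 member promoters, against 6.38% of all 32841 promoters of this length. Among the 5 target genes with a promoter, 3 held them. Those of Hes5 (chr4:154960673-154960972, plus strand), Hes7 (chr11:69120203-69120502, plus strand) and Lfng (chr5:140607091-140607390, plus strand) are given 5′ to 3′, with each match in capitals.
Hes5: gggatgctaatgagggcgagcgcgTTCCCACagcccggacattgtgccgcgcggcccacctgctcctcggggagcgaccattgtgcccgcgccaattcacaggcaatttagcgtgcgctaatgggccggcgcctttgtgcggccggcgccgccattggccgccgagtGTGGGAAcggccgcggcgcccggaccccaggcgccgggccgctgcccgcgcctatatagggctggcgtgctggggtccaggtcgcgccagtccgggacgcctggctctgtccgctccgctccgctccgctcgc
Hes7: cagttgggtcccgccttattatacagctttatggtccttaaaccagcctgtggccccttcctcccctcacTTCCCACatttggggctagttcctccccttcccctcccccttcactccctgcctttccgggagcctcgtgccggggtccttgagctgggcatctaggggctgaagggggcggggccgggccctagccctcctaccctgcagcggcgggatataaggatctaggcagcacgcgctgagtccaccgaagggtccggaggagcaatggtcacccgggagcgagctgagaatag
Lfng: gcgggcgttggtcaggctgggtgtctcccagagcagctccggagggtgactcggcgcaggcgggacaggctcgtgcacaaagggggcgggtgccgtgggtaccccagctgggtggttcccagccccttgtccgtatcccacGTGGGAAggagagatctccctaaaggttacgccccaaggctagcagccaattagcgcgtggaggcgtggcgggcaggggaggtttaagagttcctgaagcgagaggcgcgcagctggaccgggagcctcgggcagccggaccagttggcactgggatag
Hes5 held 2 matches, 1 on each strand, whose first printed bases lie 226 and 83 bases upstream of the start; the match of Hes7 begins 180 and that of Lfng 109 bases upstream. The shorter TGGGAA, which is part of GTGGGAA, was in 28.6% of member promoters and 25.6% of all. Of letters bound by Hes and Hey proteins, CACGTG was in 9.52% and 7.15% and CACGCG in 23.8% and 9.27%, and of letters bound by Sox proteins, ACAAAG was in 21.4% and 18.7% and AACAAT in 9.52% and 10.7%. Such a match describes letters and is not evidence of binding.

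Most of the Notch pathway did not pass the test between the lines. Dtx4 and Dtx3, E3 ubiquitin ligases of the Deltex family, rose in NSCL61-sox11, and Psen2, a catalytic subunit of gamma-secretase, fell, while 32 of 35 tested members were not called. No receptor, ligand, nuclear factor or target was called in this fit, which holds no block by array number. That is 8.57% of the tested members, where 19.2% of all tested genes were called at an adjusted p under 0.05 (limma, Benjamini-Hochberg over all tested probe sets); 10.0% of all genes rose and 9.19% fell. Of the called members, Dtx4 alone changed at least 2-fold. Of all 13084 tested genes, 4.48% were both called and changed at least 2-fold. Among probe sets, 5 of the members' 62 tested ones were called (8.06%), against 17.3% of all. The median log2 fold change was 0.04 over the members and -0.02 over all genes, and the median size was 0.21 and 0.16. At an unadjusted p under 0.05 there were 12 members.

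These counts moved with a block by array number and with single arrays. With that block 42.9% of tested members and 36.9% of all genes were called, so the members' share was then not the lower one. What an array number shares is not in the labels. Without NSCL61-sox11 array 1, 8 members were called, and without NSCL61-sox11 array 2, 6 were; without NSCL61 array 1 it was 2 and without NSCL61 array 2 it was 1. All genes called were then 20.6%, 18.9%, 6.94% and 7.21%. Scaling to the poly-A labelling controls moved all log2 fold changes by -0.40, 1 member rose and 2 fell, and 303 genes of all rose and 1051 fell, against 1308 and 1202 as deposited. Scaling to the hybridisation controls moved them by -0.22, 1 member rose and 4 fell, and 702 genes of all rose and 2336 fell. Under both scalings the moderated degrees of freedom rose to 54044, so their calls and p-values are not comparable with the others. Directions below are relative to the deposited scale.

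**Figure D1:**
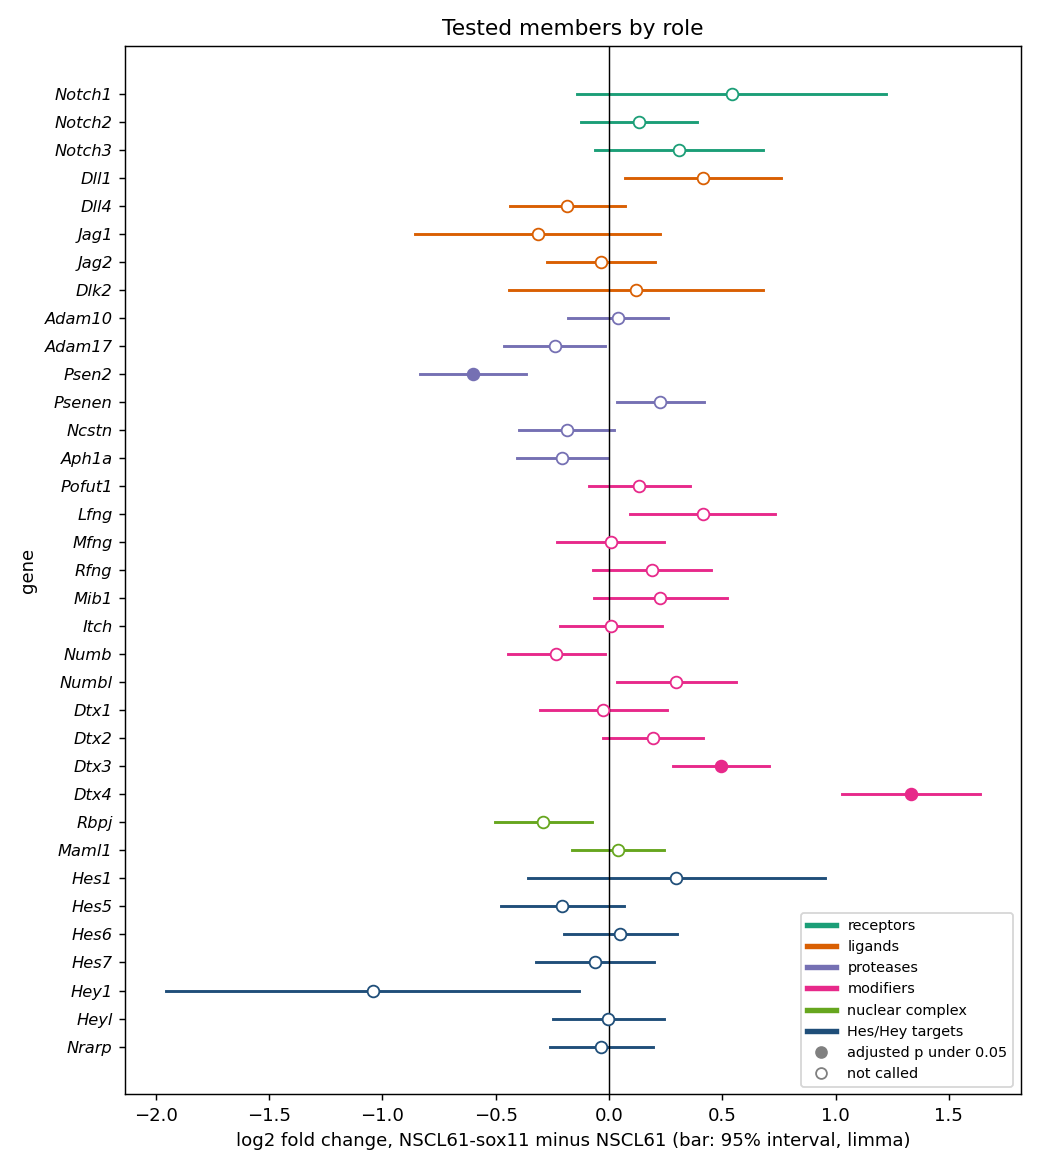
Log2 fold change (NSCL61-sox11 minus NSCL61) of the 35 tested members, coloured by role, with limma's 95% interval as a bar; filled points have an adjusted p under 0.05. Dtx4 and Dtx3 lie right of 0 and Psen2 left of it, and Hey1 has the widest interval, from -1.95 to -0.13.

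**Figure D2:**
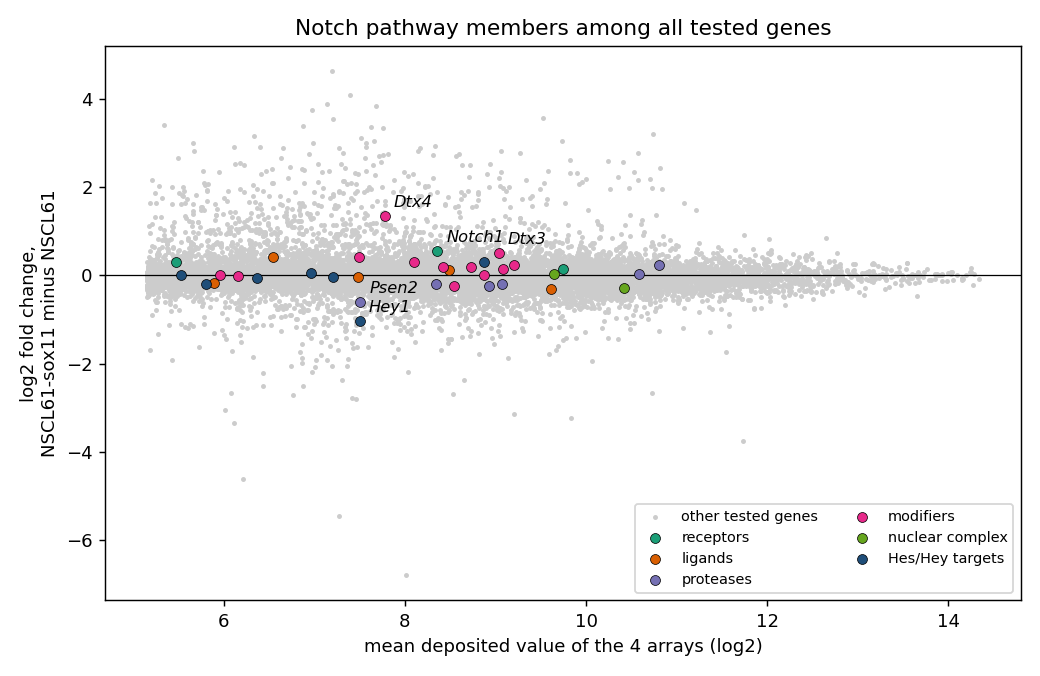
Log2 fold change (NSCL61-sox11 minus NSCL61) against the mean deposited value of the 4 arrays (log2), with 35 members coloured by role among the 13084 tested genes in grey. Changes over all genes run from -6.78 to 4.62, and those of the members from -1.04 to 1.33.

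The 4 receptors are the membrane proteins that ligand binding activates. Notch1, with a known role in embryonic neural progenitors, had values of 8.28 and 8.98 in NSCL61-sox11, against 7.76 and 8.41 in NSCL61, a log2 fold change of 0.54 (95% interval -0.14 to 1.22, limma adjusted p = 0.25). Its arrays overlapped between the lines, and within each line they lay 0.70 and 0.65 apart, which is more than the difference. Array 2 was the higher one in both lines, and the labels do not say what an array number shares. Without NSCL61-sox11 array 1 the change was 0.89 and was called (adjusted p = 0.039), and without NSCL61-sox11 array 2 it was 0.19 (adjusted p = 0.67). Its second probe set differed by 0.27 (adjusted p = 0.39).

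Notch2, widely expressed in neural progenitors and glia, had values of 9.69 and 9.94 in NSCL61-sox11, against 9.64 and 9.73 in NSCL61. The groups overlapped, and the interval of the log2 fold change ran from -0.12 to 0.39. Notch3, best known for its function in mural cells, stood at 5.42 and 5.84 in NSCL61-sox11, against 5.29 and 5.35 in NSCL61. Its groups did not overlap, as for 62.2% of all tested genes and 19 of 35 members, and its change of 0.31 was not called (adjusted p = 0.23). Without NSCL61-sox11 array 1 it was 0.52 and was called (adjusted p = 0.046). Notch4, an endothelial receptor, was at 4.47 and 4.50 in NSCL61-sox11, against 4.49 and 4.29 in NSCL61, below the level filter of 5.15 in every array.

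Of the 7 ligands, 5 were tested and none was called, where 19.2% of all tested genes were. Dll1, a Delta ligand made by differentiating neural cells that activates Notch in their neighbours, stood at 6.56 and 6.94 in NSCL61-sox11, against 6.33 and 6.33 in NSCL61. Both NSCL61-sox11 arrays were higher, and the log2 fold change was 0.42 (95% interval 0.07 to 0.76, limma adjusted p = 0.098). It was 0.60 without NSCL61-sox11 array 1 (adjusted p = 0.020) and 0.23 without NSCL61-sox11 array 2 (adjusted p = 0.32).

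Jag1, a Jagged ligand of progenitors and of vascular cells, ran the other way, with 9.09 and 9.83 in NSCL61-sox11, against 9.71 and 9.83 in NSCL61. One NSCL61-sox11 array was low and the other matched NSCL61, which gave -0.31 (95% interval -0.85 to 0.23, adjusted p = 0.40). Without NSCL61-sox11 array 2 the change was -0.68 and was called (adjusted p = 0.0041), and without NSCL61-sox11 array 1 it was 0.06, on the other side of 0. The other Jag1 probe sets differed by -0.63 and -0.27 (adjusted p = 0.15 and 0.26).

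Dll4, known as the ligand of sprouting endothelium, had values of 5.86 and 5.74 in NSCL61-sox11, against 6.01 and 5.96 in NSCL61 (log2 fold change -0.18, adjusted p = 0.29), and its second probe set gave -0.18 as well. Jag2 differed least of the tested ligands, with 7.42 and 7.51 in NSCL61-sox11, against 7.55 and 7.45 in NSCL61, and an interval from -0.27 to 0.20. Dlk2, a Delta-like protein without the domain by which Delta ligands bind Notch, was at 8.89 and 8.19 in NSCL61-sox11, against 8.59 and 8.26 in NSCL61, so that both NSCL61 values lay between those of NSCL61-sox11.

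Dll3, a divergent Delta that does not activate Notch in neighbouring cells, and Dner, a neuronal membrane protein with EGF repeats, were below the filter. Dll3 had 4.44 and 4.34 in NSCL61-sox11, against 4.35 and 4.40 in NSCL61. Dner had 4.03 and 4.38 in NSCL61-sox11, against 4.36 and 4.71 in NSCL61. In a fit of all probe sets neither was called (adjusted p = 0.96 and 0.30).

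**Figure D3:**
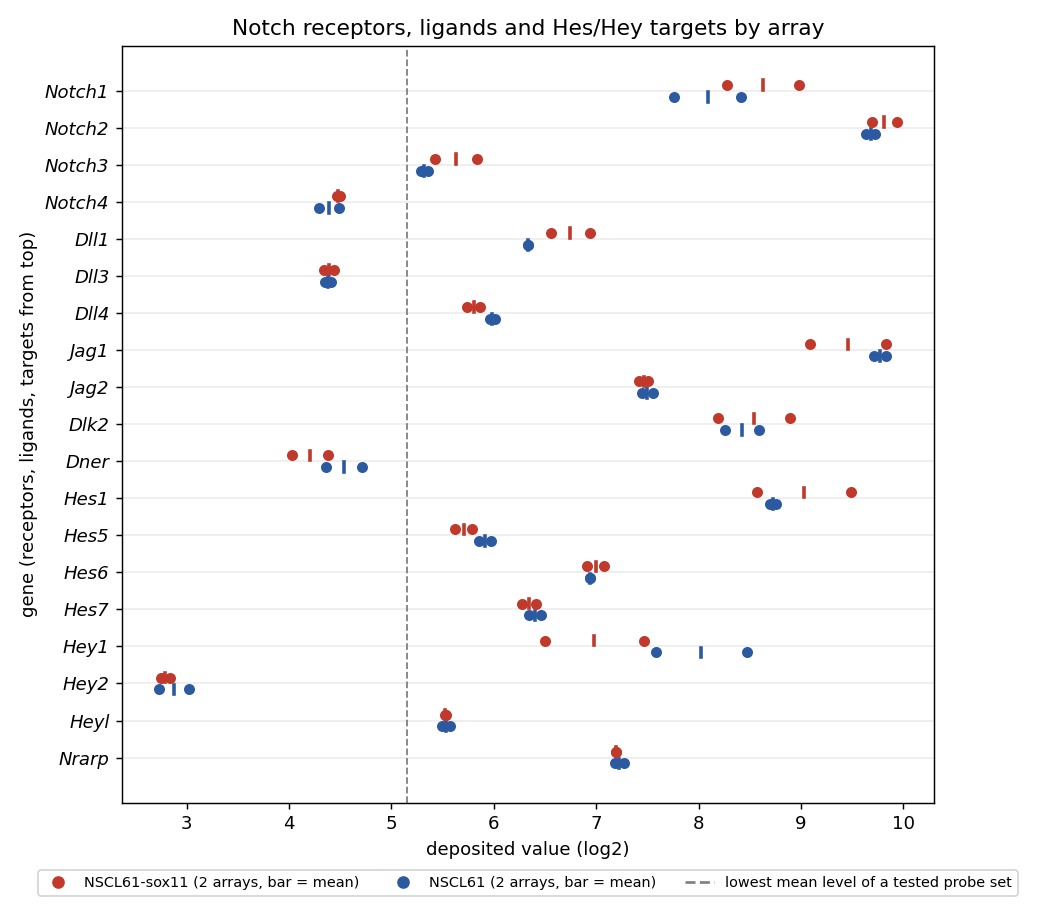
Deposited value (log2) of each receptor, ligand and target gene on each array, NSCL61-sox11 above NSCL61 within a gene, with the mean as a short bar and the lowest mean level of a tested probe set, 5.15, as a dashed line. The 2 NSCL61-sox11 points of Notch1, Jag1, Dlk2, Hes1 and Hey1 lie over 0.5 apart.

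Receptor cleavage was represented by 6 proteases and protease subunits, of which Psen2 fell. Its values were 7.21 and 7.20 in NSCL61-sox11, against 7.74 and 7.87 in NSCL61, with no overlap. The log2 fold change was -0.60 (SE 0.10, limma adjusted p = 0.010), a 1.52-fold lower level in NSCL61-sox11. A second tested probe set did not differ, with 6.67 and 6.78 in NSCL61-sox11, against 6.75 and 6.65 in NSCL61 (0.02, adjusted p = 0.91), and the mean of both gave -0.29 (adjusted p = 0.055). Without NSCL61 array 2 the change was -0.54 and the call was lost (adjusted p = 0.081), and under poly-A and hybridisation control scaling it was -1.004 and -0.82.

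The other gamma-secretase subunits moved by less. Aph1a had 8.94 and 8.99 in NSCL61-sox11, against 9.17 and 9.18 in NSCL61 (-0.21, adjusted p = 0.14), but its other probe sets gave 0.17 and 0.08. Ncstn, the subunit nicastrin that receives the substrate, was at 8.26 and 8.24 in NSCL61-sox11, against 8.42 and 8.45 in NSCL61 (-0.19, adjusted p = 0.20). Psenen, the subunit that completes the complex, was at 10.86 and 10.99 in NSCL61-sox11, against 10.65 and 10.74 in NSCL61 (0.23, adjusted p = 0.10); without NSCL61-sox11 array 1 it was 0.29 and called (adjusted p = 0.049). On the probe sets used, the arrays of these 3 genes did not overlap between the lines, as for 62.2% of all tested genes. All 3 differences were under 0.25 in size.

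Of the membrane proteases that make the first cut, Adam17 had 8.87 and 8.74 in NSCL61-sox11, against 9.01 and 9.09 in NSCL61 (-0.24, adjusted p = 0.13). Its 3 probe sets all lay lower in NSCL61-sox11, by 0.24 to 0.31, and their mean was called (-0.29, adjusted p = 0.049). Adam10, the main protease of ligand-activated Notch, had 10.51 and 10.70 in NSCL61-sox11, against 10.51 and 10.62 in NSCL61, an interval of -0.18 to 0.26.

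The 12 modifiers held both rises. Deltex proteins are ubiquitin ligases, named for the fly gene deltex, that bind or regulate Notch during its trafficking, and 2 of the 4 listed rose. Dtx4 stood at 8.36 and 8.53 in NSCL61-sox11, against 6.98 and 7.24 in NSCL61. Both NSCL61-sox11 arrays were more than 1 log2 unit above both NSCL61 arrays. The log2 fold change was 1.33 (SE 0.13, limma adjusted p = 0.0014), which is 2.52-fold with a 95% interval of 2.04-fold to 3.11-fold. Its second probe set read 7.49 and 7.59 in NSCL61-sox11, against 6.28 and 6.45 in NSCL61, a rise of 1.18. The call held without each array in turn, where the change was 1.20 to 1.46. Under the control scalings, whose calls are not comparable with those of the other fits, the change was 0.93 and 1.12.

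Dtx3 had values of 9.25 and 9.32 in NSCL61-sox11, against 8.84 and 8.74 in NSCL61, with no overlap. Its only probe set was 1.41-fold higher in NSCL61-sox11, 0.50 in log2 units (SE 0.09, limma adjusted p = 0.0135). Leaving out NSCL61 array 1 or 2 ended the Dtx3 call, with changes of 0.55 and 0.45. Under the control scalings, whose calls are not comparable with those of the other fits, the change was 0.09 and 0.28. Dtx2 was at 8.56 and 8.47 in NSCL61-sox11, against 8.29 and 8.35 in NSCL61 (0.19, adjusted p = 0.20). Dtx1, itself a Notch target in lymphocytes, was at 6.26 and 6.03 in NSCL61-sox11, against 6.19 and 6.16 in NSCL61, an interval of -0.31 to 0.26.

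Fringe enzymes extend the O-fucose that Pofut1 adds to Notch and thereby tune its response to Delta and Jagged. Lfng, whose promoter is printed above, stood at 7.88 and 7.53 in NSCL61-sox11, against 7.29 and 7.29 in NSCL61, a log2 fold change of 0.41 (95% interval 0.10 to 0.73, limma adjusted p = 0.082). It was 0.59 and called without NSCL61-sox11 array 2 (adjusted p = 0.017), and 0.24 without NSCL61-sox11 array 1 (adjusted p = 0.24). Its dimmer probe set overlapped between the lines (0.12). Rfng differed by 0.19, Mfng by 0.01 and Pofut1 by 0.13 (adjusted p = 0.29, 0.97 and 0.38).

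Numb and Numbl encode related adaptors that inhibit Notch, and Numb is known for unequal inheritance by dividing neural progenitors. The values of Numb and Numbl pointed opposite ways. Numb was at 8.40 and 8.46 in NSCL61-sox11, against 8.64 and 8.69 in NSCL61 (-0.23, adjusted p = 0.13), and its second probe set gave -0.22. Numbl was at 8.23 and 8.28 in NSCL61-sox11, against 7.85 and 8.07 in NSCL61 (0.30, adjusted p = 0.11). Neither was called. Neither pair of groups overlapped, as for 62.2% of all tested genes. Itch, a ubiquitin ligase acting on Notch, differed by 0.01 with an interval of -0.21 to 0.23. Mib1, the ligase that drives ligand endocytosis, differed by 0.23 on its brightest probe set (adjusted p = 0.26) and was lower by 0.42 on another, which was called (-0.42, adjusted p = 0.031).

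In the nucleus, Rbpj binds DNA and holds either co-repressors or the Notch intracellular domain with a Mastermind protein. Rbpj was at 10.33 and 10.23 in NSCL61-sox11, against 10.65 and 10.48 in NSCL61, without overlap. The log2 fold change was -0.29 (95% interval -0.50 to -0.08, limma adjusted p = 0.073). Its 3 probe sets gave -0.29, -0.22 and -0.26, and none was called. With hybridisation control scaling Rbpj was called (-0.51), but p-values of that fit are not comparable with the others. Maml1 was at 9.66 and 9.68 in NSCL61-sox11, against 9.57 and 9.69 in NSCL61, with an interval of -0.16 to 0.24. Maml2, below the filter, was at 4.40 and 4.38 in NSCL61-sox11, against 4.54 and 4.42 in NSCL61.

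None of the 7 tested target genes was called, where 19.2% of all tested genes were. The difference was under 0.25 in size for 5 of these targets. Hes1, a bHLH repressor and a direct target in neural progenitors, stood at 8.57 and 9.49 in NSCL61-sox11, against 8.76 and 8.70 in NSCL61. The NSCL61-sox11 arrays lay on both sides of NSCL61, 0.92 apart, and the log2 fold change was 0.30 (95% interval -0.36 to 0.95, limma adjusted p = 0.515). Without NSCL61-sox11 array 1 it was 0.76 and called (adjusted p = 0.0035), and without NSCL61-sox11 array 2 it was -0.16 (adjusted p = 0.40), so 1 array set its direction.

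Hey1, a bHLH repressor related to Hes proteins, had the largest difference among the targets. It stood at 6.50 and 7.46 in NSCL61-sox11, against 7.58 and 8.47 in NSCL61. Both NSCL61-sox11 arrays were below both NSCL61 arrays, but by only 0.12, and arrays of a line lay 0.96 and 0.89 apart. As for Notch1, array 2 was the higher one in both lines. The log2 fold change was -1.04 (95% interval -1.95 to -0.13, limma adjusted p = 0.11). It was -1.52 and called without NSCL61-sox11 array 2 (adjusted p = 0.014), -1.49 without NSCL61 array 1, and -0.56 and -0.60 without NSCL61-sox11 array 1 or NSCL61 array 2. Hey1 was called under both control scalings (-1.45 and -1.26), whose p-values are not comparable with those of the other fits.

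Hes5, whose promoter above holds the Rbpj letters on both strands, was at 5.78 and 5.62 in NSCL61-sox11, against 5.97 and 5.85 in NSCL61. The groups did not overlap, and the log2 fold change was -0.21 (95% interval -0.48 to 0.06, adjusted p = 0.27). Hes7, the oscillating repressor of the somite clock, was at 6.41 and 6.27 in NSCL61-sox11, against 6.46 and 6.35 in NSCL61, an interval of -0.32 to 0.20. Nrarp, a target that feeds back on the Notch complex, was at 7.19 and 7.19 in NSCL61-sox11, against 7.27 and 7.18 in NSCL61, an interval of -0.26 to 0.20.

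Hes6, which opposes Hes1 and promotes neuronal differentiation, was at 6.91 and 7.08 in NSCL61-sox11, against 6.94 and 6.94 in NSCL61 (0.05, adjusted p = 0.79). Heyl was at 5.52 and 5.53 in NSCL61-sox11, against 5.49 and 5.57 in NSCL61, the smallest difference among the tested members. Hey2 was far below the filter, with 2.83 and 2.75 in NSCL61-sox11, against 3.03 and 2.73 in NSCL61. For the tested targets other than Hey1 the 95% intervals exclude a 2-fold change of the array values either way. They do so for 32 of the 35 tested members, and the exceptions are Notch1, Dtx4 and Hey1. These intervals rest on array-to-array spread that may be technical. Notch3, Heyl, Hes5, Dll4 and Mfng, with means of 5.48 to 5.96, lay near the level filter of 5.15. That filter ranks brightness and is not a detection call. For these genes a 2-fold change in transcript is not excluded.

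The spread between arrays of a line was wide for some members. In NSCL61-sox11 the arrays differed by over 0.5 for 5 of 35 tested members (14.3%; Notch1, Jag1, Dlk2, Hes1 and Hey1), against 3.21% of all tested genes. In NSCL61 this held for Notch1 and Hey1, 5.71% of members and 2.39% of all genes. NSCL61-sox11 array 2 was the higher one for Notch1, Jag1, Hes1 and Hey1 and the lower one for Dlk2. The summed fibroblast and meninges markers were at 11.61 on NSCL61-sox11 array 1 and 12.68 on array 2. Of the 6 tested, Postn, Col1a1, Col3a1 and Pdgfrb were higher on array 2, and Col1a2 and Dcn were lower. Their part in these differences was not tested.

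**Figure D4:**
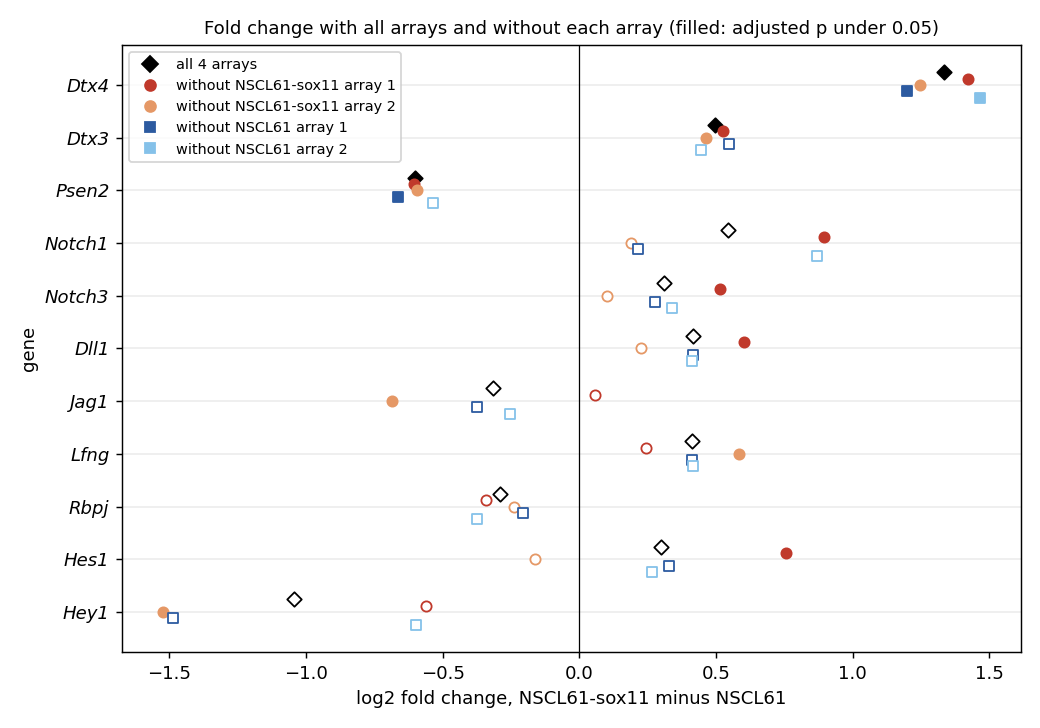
Log2 fold change (NSCL61-sox11 minus NSCL61) of 11 members with all 4 arrays (black diamonds) and without each array in turn; filled symbols have an adjusted p under 0.05. Dtx4 stays filled in all 5 fits, while Jag1 and Hes1 change side of 0 when 1 NSCL61-sox11 array is left out.

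A further list of 40 pathway genes, ligands, enzymes, co-repressors and coactivators that are not among the members, had 34 tested, of which 7 rose, 3 fell and 24 did not pass. The list was chosen with earlier results of these data known, so its share is a description only. The share called was 29.4%, against 19.2% of all genes, and the median was -0.03. This count fell to 2 without NSCL61 array 1 and 3 without NSCL61 array 2, and was 5 with poly-A scaling.

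The largest rise was that of Dlk1, an imprinted Delta-like membrane protein that, like Dlk2, lacks the Notch-binding domain of Delta ligands. It stood at 11.72 and 11.65 in NSCL61-sox11, against 9.12 and 9.12 in NSCL61 (2.56, SE 0.07, limma adjusted p = 7.1e-05). Neurl1b, a ubiquitin ligase of the Neuralized family that acts on Notch ligands, was at 7.39 and 8.58 in NSCL61-sox11, against 6.03 and 6.35 in NSCL61, a rise of 1.79 (adjusted p = 0.020). Its NSCL61-sox11 arrays lay far apart, the change was 1.19 without NSCL61-sox11 array 2 and 2.39 without array 1, and leaving out NSCL61 array 1 or 2 ended the call (adjusted p = 0.11 and 0.071).

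Groucho proteins are co-repressors that Hes and Hey factors recruit, and 2 of the 4 listed rose. Tle2 was at 8.04 and 8.51 in NSCL61-sox11, against 6.38 and 6.76 in NSCL61, a rise of 1.70 (SE 0.19, limma adjusted p = 0.0028) that stayed called without each array in turn. Tle4 was at 7.58 and 7.58 in NSCL61-sox11, against 7.12 and 7.17 in NSCL61 (0.43, adjusted p = 0.025). It lost its call without any 1 of the 4 arrays. Under the control scalings, whose calls are not comparable with those of the other fits, the change was 0.03 and 0.22. Tle1 and Tle3 differed by -0.33 and 0.13 (adjusted p = 0.20 and 0.52).

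The other calls were small. Eogt, which adds a sugar to the EGF repeats of Notch, and the deacetylases Hdac1 and Hdac2 rose by 0.39, 0.33 and 0.24 (adjusted p = 0.029, 0.017 and 0.042), but with poly-A scaling each lay on the other side of 0 (-0.02, -0.07 and -0.16). The co-repressor gene Ctbp2 fell by 0.49, Snw1, whose protein binds the Rbpj complex, by 0.42, and Rita1, which carries Rbpj out of the nucleus, by 0.43 (adjusted p = 0.026, 0.023 and 0.039). All 6 lost their calls without NSCL61 array 1, and all 6 without NSCL61 array 2. Ccn3, a matrix protein reported to bind Notch1, was at 7.46 and 8.08 in NSCL61-sox11, against 6.20 and 7.08 in NSCL61, and was not called (1.13, adjusted p = 0.056).

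Neural genes known to act beside the pathway were given for context. Of the proneural and neurogenic factors Neurog1, Neurog2, Neurod1, Neurod4, Insm1 and Myt1, whose genes Hes proteins can repress, Neurog1 alone was bright enough to be tested, with 5.81 and 5.64 in NSCL61-sox11, against 5.70 and 5.67 in NSCL61 (0.04, adjusted p = 0.86). The progenitor and astrocyte genes Sox9, Gfap and Nes differed by -0.21, -0.29 and 0.05 (adjusted p = 0.17, 0.10 and 0.81). So 4 of these genes were tested and none was called by limma, where 19.2% of all tested genes were called. In the same fit 1 of them had an unadjusted p under 0.05. Progenitor markers outside this list did differ, as given above: Sox2 fell by 1.70, Vim fell by 0.21 and Slc1a3 rose by 1.19.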

How the data were processed

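Total RNA (5 µg per sample) was labelled with biotin and hybridised to Affymetrix M430_2 arrays, 1 per sample, per the labels' protocols. The authors deposited 1 value for each of 45101 probe sets on each array. Their log base, summarisation and normalization are not given in the sources used here. For analysis, the deposited values were taken to be log2 values made by the authors from the scanned arrays, from their range of 2.13 to 14.62, and were not transformed again. Gene symbols came from the array platform's annotation table: 34945 had 1 symbol, 932 several and 9160 none here; 64 control probe sets were left out, and gene identifiers updated 0 symbols.

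limma 3.58.1 in R 4.3.3 (lmFit, eBayes with an intensity trend, two-sided) compared NSCL61-sox11 with NSCL61 after keeping the brightest 60% by mean value (27022 probe sets), with Benjamini-Hochberg adjustment over them and calls under 0.05. There were 2 residual degrees of freedom, 6.36 after moderation. An exact permutation test of 2 arrays against 2 cannot go below p = 0.333. The number of arrays limits the precision. Figures were drawn with matplotlib 3.10.9. The fit was tested on simulated data with independent noise on each array, which does not cover arrays that deviate together.

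The members, their roles and the further lists were chosen with earlier results of these data known. Named are all members, called genes of the further pathway list (Ccn3, Tle1 and Tle3 were added after their values were seen), the neural genes, and markers that were called or define a cell type; alternatives were other filters, scalings, probe set choices, a block by number, and each array left out. One listed neural gene is not reported here.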

Additional observations from a re-analysis of the deposited data

How the results depend on the processing

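Of 621 values of single genes under 14 alternatives, 554 kept their direction where called and their side of the threshold, 39 lost a call, 25 gained one and 3 changed side of 0: Eogt (-0.016), Hdac1 (-0.072) and Hdac2 (-0.16) with poly-A control scaling, which lowers every fold change by the same amount. Signs of uncalled members changed most often under the control scalings, for 15 members with poly-A and 10 with hybridisation controls. There the moderated degrees of freedom rose to 54044, so their p-values are not comparable with the others. Members called were 5 with hybridisation control scaling and 1 to 8 without 1 array, against 3; with all probe sets tested, only the brightest 40%, quantile normalization, median centring, no intensity trend, the mean of all probe sets, or without _x_at and _s_at probe sets, the count stayed at 3. All genes called were 1354 with poly-A control scaling and 908 to 2692 without 1 array. The further pathway list had 5 called with poly-A control scaling and 2 to 10 without 1 array.

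Arrays with the same number deviated together (correlation 0.41 over tested probe sets), but the labels do not say what a number shares. With the replicate block 15 members (9 up, 6 down; 42.9% of those tested) and 4830 of all genes (36.9%) were called, at 40.2 moderated degrees of freedom, so the members' share was then not below that of all genes. The 12 members gained were Notch1, Dll1, Jag1, Adam17, Psenen, Lfng, Mib1, Numb, Numbl, Rbpj, Hes1 and Hey1. Members below 5.15 carry no usable fold change.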
